A study of Mus musculus with 6 samples.

Results

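Chemokines are small secreted proteins that guide cell movement through G-protein-coupled receptors on the responding cells. The 10 genes described here encode chemokines that CD8+ T cells can release or that recruit the cells they act with: Xcl1, Ccl1, Ccl3, Ccl4, Ccl5, Ccl9, Ccl22, Cxcl2, Cxcl3 and Cxcl10. They were picked by symbol from a table of 24589 genes, with their response to treatment already known. Their changes with treatment are therefore given as a description and without a p-value, and the table held all 10 of them. Where any of the 10 passed a test threshold, this is only counted, and nothing is read from it.

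RNA was sequenced in bulk from wild-type primary mouse CD8+ T cells, which were first activated with antibodies to CD3 and CD28. For 24 h the cells then received 20 µM trans-vaccenic acid (TVA), a fatty acid of milk and meat from ruminants, or the solvent DMSO. Each group had 3 libraries, for which the labels name neither separate animals nor separate cultures, so the spread between libraries may be technical. Levels are given as TPM, the share of all transcripts scaled to one fixed total, which corrects for transcript length and allows genes to be compared. In bulk RNA, fewer cells of a type and less RNA per cell cannot be told apart.

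T cell receptor signalling switches on several chemokine genes through NF-kB, AP-1 and NFAT, while interferon signalling drives others. CCL3, CCL4 and CCL5 attract T cells and myeloid cells, and XCL1 attracts the dendritic cells that carry XCR1 and present antigen to CD8+ T cells. CXCL10 calls in effector T cells through CXCR3, whereas CXCL2 and CXCL3 attract neutrophils through CXCR2.

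The genes lie on 4 chromosomes of the mouse genome build GRCm38.p6. Xcl1 is alone on chromosome 1 (chr1:164931644-164935522, minus strand), and Ccl22 alone on chromosome 8 (chr8:94745684-94751388, plus strand). The CXC genes share chromosome 5, where Cxcl3 (chr5:90786101-90788093, plus strand), Cxcl2 (chr5:90903899-90905938, plus strand) and Cxcl10 (chr5:92346638-92348889, minus strand) are found. The other CC genes share chromosome 11, with Ccl1 at chr11:82176666-82179812, Ccl5 at chr11:83525778-83530518, Ccl9 at chr11:83572917-83578636, Ccl3 at chr11:83647843-83649378 and Ccl4 at chr11:83648624-83664683. In RefSeq the Ccl4 gene runs over Ccl3, while in GENCODE vM21 the pair do not overlap. Whether reads were counted by strand is not given in the sources used here, so RefSeq leaves the split of reads between Ccl3 and Ccl4 uncertain.

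RefSeq promoter sequence was matched for 8 of the 10 genes, all but Ccl4 and Ccl5. The 250 bases before the start were searched for an NF-kB motif, GGGA and TTCC with any 2 bases between them, on both strands. It was found in Cxcl2, Cxcl3, Cxcl10 and Ccl1, which is 4 of 8 genes, and in 1.21% of all 32851 promoters of the same length. These 4 promoters are printed from shortly before the motif to the base before the start, with the motif in capitals, beside that of Xcl1, which had the highest transcript level and no match. Matches on the 2 strands overlap in Cxcl2, Cxcl3 and Ccl1, so the capitals there run over 11 bases. The first base of the motif lies 97 bases before the start in Cxcl2, 73 in Cxcl3, 159 in Cxcl10 and 196 in Ccl1.
Cxcl2 (chr5:90903792-90903898, plus strand): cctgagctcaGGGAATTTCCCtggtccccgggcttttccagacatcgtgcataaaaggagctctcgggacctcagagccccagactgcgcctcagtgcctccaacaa
Cxcl3 (chr5:90786001-90786100, plus strand): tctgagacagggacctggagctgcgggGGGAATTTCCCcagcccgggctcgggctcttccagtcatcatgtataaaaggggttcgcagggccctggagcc
Cxcl10 (chr5:92348890-92349058, minus strand): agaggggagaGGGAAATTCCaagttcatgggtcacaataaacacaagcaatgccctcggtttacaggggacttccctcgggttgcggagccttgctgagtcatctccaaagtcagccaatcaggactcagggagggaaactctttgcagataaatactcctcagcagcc
Ccl1 (chr11:82179813-82180018, minus strand): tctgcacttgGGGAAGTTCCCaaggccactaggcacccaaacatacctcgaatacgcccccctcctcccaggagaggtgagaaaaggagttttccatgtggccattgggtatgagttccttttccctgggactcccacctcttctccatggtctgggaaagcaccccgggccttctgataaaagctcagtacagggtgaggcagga
Xcl1 (chr1:164935523-164935622, minus strand): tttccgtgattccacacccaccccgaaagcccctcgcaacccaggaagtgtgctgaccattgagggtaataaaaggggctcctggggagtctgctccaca

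Cxcl2 and Cxcl3 carry the same 11 capital letters, whereas the motif letters of Cxcl10 and Ccl1 differ from them. An AP-1 motif (TGANTCA, both strands) was found in Cxcl10 and Ccl9, and in 6.75% of all promoters. An NFAT core (GGAAAA, both strands) was found in Cxcl2, Ccl1 and Ccl3, and in 20.4% of all promoters. The full cAMP response element (TGACGTCA, both strands) was found in 0 of the 8 genes and 1.55% of all promoters, and its shorter form TGACG in 0 of the 8 and 17.8%. An interferon response element (GAAA repeated after any 2 bases, both strands) was found in Cxcl10 alone of the 8 genes, and in 2.98% of all promoters. TATAAA, searched only in the direction of the gene, was found in Cxcl3 and Ccl9, and in 7.59% of all promoters. A match only describes the letters in this window.

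All 10 genes stood at 2.43 TPM or more in every library, so each passed the filter for low values in both groups. Their levels spanned from a few TPM to a maximum of 11108 TPM (Xcl1, TVA replicate 2), in the order Xcl1, Ccl4, Ccl3, Ccl1, Ccl9, Ccl5, Cxcl10, Ccl22, Cxcl3 and Cxcl2 by mean TPM. Within every library each gene stood above the next, except that Cxcl10 exceeded Ccl22 in 3 of 6 libraries, with a ratio of 0.902 to 1.16. The ranges over the 6 libraries overlapped for that pair and for Ccl4 and Ccl3. Xcl1 stood 2.31 to 2.86 times above Ccl4, and Ccl3 stood 9.40 to 10.9 times above Ccl1.

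Among all genes, Xcl1 ranked 4, 2 and 2 by TPM in DMSO replicates 1, 2 and 3 and ranked 1 in each TVA library. Summed over the 10 genes, the DMSO libraries held 15383, 19079 and 17580 TPM and the TVA libraries 19298, 19218 and 19114 TPM. Every TVA library was above every DMSO library, though DMSO replicate 2 came close, and the ratio of the means was 1.11. Between 1.54% and 1.93% of all TPM in a library came from these genes, and Xcl1, Ccl3 and Ccl4 made up 96.0% to 96.4% of their sum.

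**Figure D1:**
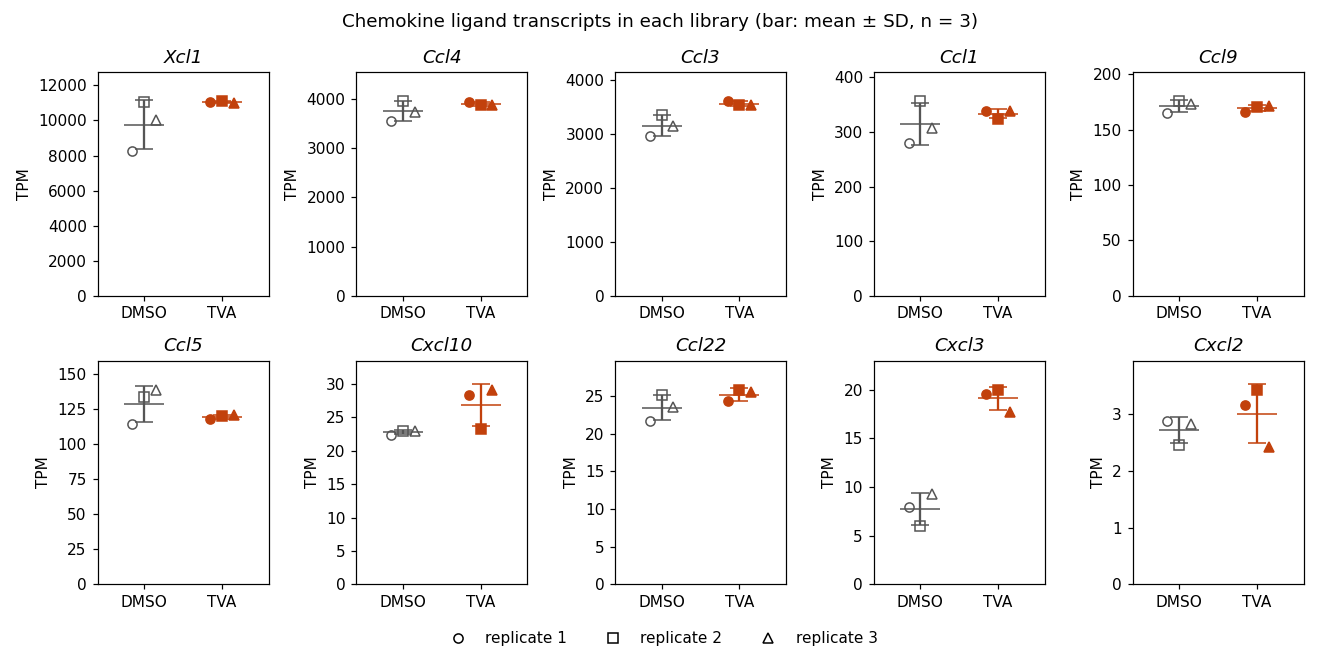
TPM (vertical axes, each from 0) of the 10 chemokine genes in each DMSO and TVA library, with 1 panel per gene, 1 marker shape per replicate number and bars for the mean ± SD (n = 3). The groups separate in the Cxcl3 panel, from 6 to 9.32 TPM with DMSO and from 17.7 to 20.0 TPM with TVA, and narrowly in those of Ccl3 and Cxcl10.

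With TVA, Cxcl3 was 2.46 times its DMSO level, while the other 9 genes had log2 changes between -0.10 and 0.23. By limma on log2(TPM + 1), with Benjamini-Hochberg adjustment over all genes and a threshold of 0.05, 1 of the 10 genes was called, beside 8.51% of the 10866 genes tested. That gene was Cxcl3, and it was higher with TVA, as were 5.28% of all genes, while 0 of the 10 were called lower, beside 3.23%. The groups did not overlap for 3 of the 10, namely Cxcl3, Ccl3 and Cxcl10, beside 38.6% of all genes tested. All 3 were higher with TVA, beside 27.3%. The median log2 change of the 10 genes was 0.10, beside 0.04 over all genes tested, and 8 of the 10 were above 0. Nothing is read from these counts, since this contrast chose the genes.

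Cxcl3, a neutrophil chemoattractant, was measured at 7.98, 6 and 9.32 TPM in DMSO replicates 1 to 3 and at 19.6, 20.0 and 17.7 TPM in TVA replicates 1 to 3. The lowest TVA library was well above the highest DMSO library. The means were 7.77 ± 1.67 TPM (SD, n = 3) and 19.1 ± 1.21 TPM (SD, n = 3), and the log2 change was 1.21 ± 0.13 (SE). It stayed between 1.06 and 1.34 with any 1 library left out.

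Cxcl2, its close relative with the same receptor, was measured at 2.88, 2.45 and 2.82 TPM with DMSO and at 3.16, 3.43 and 2.43 TPM with TVA. The groups overlapped, TVA replicate 3 being the lowest of the 6 libraries. Its log2 change of 0.10 ± 0.11 (SE) became 0.03 when each library's dependence on transcript GC content was removed, and ran from 0.03 without TVA replicate 2 to 0.21 without TVA replicate 3. The ratio of Cxcl3 to Cxcl2 was 2.77, 2.45 and 3.30 in the DMSO libraries and 6.21, 5.83 and 7.30 in the TVA libraries, with no overlap. Of the 2121 stretches of 31 bases in Cxcl2 transcripts, 161 also occur in Cxcl3, so part of the reads of this pair could be assigned to either gene.

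Cxcl10, the CXCR3 ligand that interferon induces, was measured at 22.4, 22.9 and 22.9 TPM with DMSO and at 28.3, 23.3 and 29.1 TPM with TVA. TVA replicate 2 was barely above the DMSO libraries, while the other TVA libraries stood clear of them. Cxcl10 had a log2 change of 0.23 ± 0.08 (SE), which went to 0.32 without TVA replicate 2, where Cxcl10 was called, beside 0.939% of all genes in that setting.

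Ccl3, a CCR1 ligand, was measured at 2953, 3354 and 3147 TPM with DMSO and at 3608, 3540 and 3538 TPM with TVA. The TVA libraries were all above the DMSO libraries, of which replicate 2 was the highest. The log2 change was 0.18 ± 0.05 (SE), from 0.13 without DMSO replicate 1 to 0.22 without DMSO replicate 2.

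Ccl4, its neighbour on chromosome 11 and another attractant of T cells and myeloid cells, was measured at 3565, 3961 and 3744 TPM with DMSO and at 3949, 3883 and 3876 TPM with TVA. DMSO replicate 2 was the highest of all 6 libraries, so the groups overlapped. Ccl4 had a log2 change of 0.06 ± 0.05 (SE), from 0.02 without DMSO replicate 1 to 0.10 without DMSO replicate 2, and 0.02 when GC content was corrected for.

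The ratio of Ccl4 to Ccl3 within a library was steadier than either level. It was 1.21, 1.18 and 1.19 in the DMSO libraries and 1.09, 1.10 and 1.10 in the TVA libraries. The groups did not overlap, and DMSO replicate 2, which lay within the TVA range for Xcl1, stayed with the other DMSO libraries. This ratio and that of Cxcl3 to Cxcl2 were chosen after the levels were seen, and neither was tested.

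**Figure D2:**
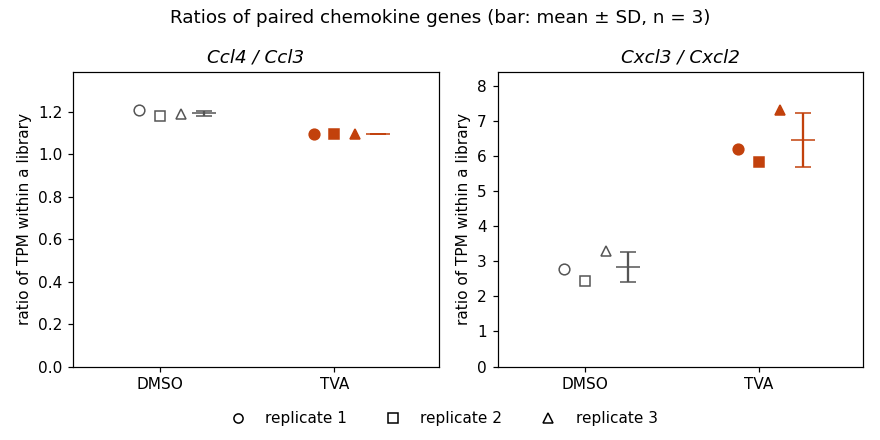
Ratio of TPM within each library (vertical axes, from 0) for Ccl4 over Ccl3 and for Cxcl3 over Cxcl2, with 1 marker per library and bars for the mean ± SD (n = 3). Ccl4 over Ccl3 was 1.19 ± 0.01 with DMSO and 1.10 ± 0.0012 with TVA, and Cxcl3 over Cxcl2 was 2.84 ± 0.43 and 6.44 ± 0.76.

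Xcl1, the XCR1 ligand, was measured at 8250, 11041 and 10010 TPM with DMSO and at 11043, 11108 and 10995 TPM with TVA. DMSO replicate 2 lay within the TVA range and DMSO replicate 1 well below it. The log2 change was 0.19 ± 0.10 (SE), with a range of 0.07 without DMSO replicate 1 to 0.28 without DMSO replicate 2.

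Ccl1, a ligand of CCR8, was measured at 280.0, 356.8 and 306.7 TPM with DMSO and at 338.9, 324.2 and 338.5 TPM with TVA. The highest of the 6 libraries was DMSO replicate 2 and the lowest DMSO replicate 1, so the TVA values lay inside the DMSO range. For Ccl1 the log2 change was 0.09 ± 0.08 (SE), from 0.01 without DMSO replicate 1 to 0.19 without DMSO replicate 2.

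Ccl22, a ligand of CCR4, was measured at 21.7, 25.1 and 23.5 TPM with DMSO and at 24.3, 25.8 and 25.5 TPM with TVA. The groups overlapped through DMSO replicate 2, and the log2 change was 0.10 ± 0.06 (SE), from 0.05 without DMSO replicate 1 to 0.15 without DMSO replicate 2.

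Ccl5, a T cell attractant made in quantity by effector and memory CD8+ T cells, was measured at 114.6, 133.6 and 139.0 TPM with DMSO and at 118.2, 120.4 and 120.9 TPM with TVA. DMSO replicate 1 was below the TVA libraries and the other DMSO libraries above them. The log2 change was -0.10 ± 0.07 (SE). It went to -0.05 without DMSO replicate 3 and to -0.18 without DMSO replicate 1, where Ccl5 was called lower, beside 8.7% of all genes called in that setting.

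Ccl9, a CCR1 ligand, was measured at 165.4, 175.9 and 173.4 TPM with DMSO and at 166.1, 170.2 and 171.3 TPM with TVA. The groups overlapped throughout, with a log2 change of -0.02 ± 0.04 (SE), between -0.05 and -0.0013 with 1 library left out, or -0.09 when GC content was corrected for. Of the 10 genes, its change was nearest to 0.

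**Figure D3:**
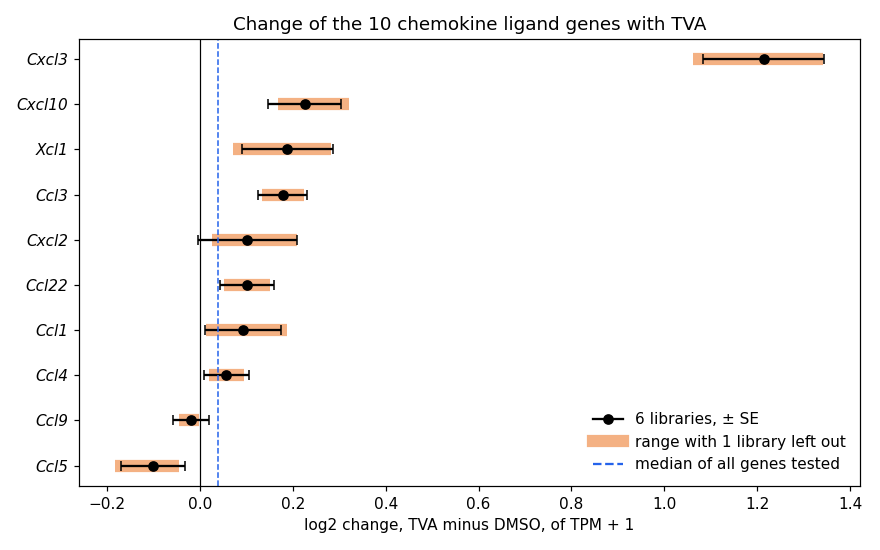
Log2 change of TPM + 1 between TVA and DMSO (horizontal axis) for the 10 chemokine genes, with points for all 6 libraries, bars for the SE and shading for the range when 1 library is left out. Cxcl3 lies at 1.21 and the other genes between -0.10 and 0.23, while the dashed line marks the median of all genes tested, 0.04.

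DMSO replicates 1 and 2 stood at opposite ends for most of the 10 genes. DMSO replicate 1 was the lowest of the 6 libraries for 8 of the 10 genes, all but Cxcl2 and Cxcl3, beside 22.8% of all genes tested. DMSO replicate 2 was the highest DMSO library for 6 of the 10, beside 31.7% of all genes tested, and tied with replicate 3 for Cxcl10. The SD of log2(TPM + 1) was larger with DMSO than with TVA for 8 of the 10, beside 74.4% of all genes tested. Without DMSO replicate 2, 4 of the 10 genes were called (Cxcl3, Ccl1, Ccl3 and Xcl1, all higher), beside 20.6% of all genes in that setting. The median log2 change of the 10 was 0.17 without DMSO replicate 2 and 0.061 without DMSO replicate 1, beside 0.04 and 0.05 over all genes. Cxcl3 was higher with TVA in every setting tried, from which nothing is read, since this contrast chose the genes.

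**Figure D4:**
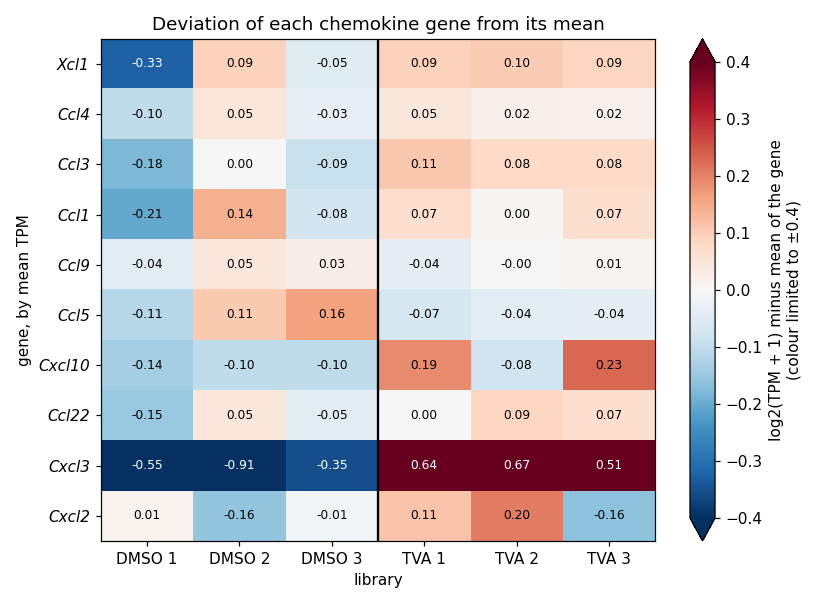
Deviation of log2(TPM + 1) from each gene's mean over the 6 libraries (colour, with the value in each cell), with genes in rows by mean TPM and libraries in columns. Xcl1 goes from -0.33 in DMSO replicate 1 to 0.10 in TVA replicate 2, and DMSO replicate 1 is the lowest cell of the row for 8 genes.

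The library differences reached beyond these genes. DMSO replicate 2 lay at 1.23 on the first principal component, which held 59.1% of the variance, with the other DMSO libraries at -18.2 and -12.8 and the TVA libraries from 8.80 to 10.8. The log2 change had a Spearman correlation of -0.40 with GC content across 10588 genes, which are not independent replicates, and the 10 genes had a GC content of 42.8% to 53.2%. Sequencing depth is unknown from TPM.

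Markers of CD8 T cells were clearly present. Of 10 listed genes 9 were in the table, and all 9 had a mean of 1 TPM or more. Their summed level was 2462 to 2663 TPM with DMSO and 2742 to 2766 TPM with TVA. Since several of the chemokines are also made by myeloid cells, markers of such cells stand beside them. Of 12 monocyte and macrophage markers, 5 reached a mean of 1 TPM, and the list summed to 131.4 to 151.4 TPM with DMSO and 111.0 to 115.3 TPM with TVA. Without Ly6c2, its most abundant gene, the sum was higher with TVA, at 55.3 to 57.1 TPM against 41.2 to 45.3 TPM with DMSO. Most of that remainder was Lyz2, and with Lyz2 left out too the sums of the groups overlapped. By limma, Lyz2 was higher with TVA (28.9 to 30.98 and then 38.0 to 41.3 TPM, adjusted p = 0.0076) and Ly6c2, which activated CD8+ T cells also express, was lower (90.1 to 106.9 and then 54.0 to 60.1 TPM, adjusted p = 0.0020). The groups did not overlap for 7 of the 12, beside 38.6% of all genes tested. Ly6c2 was lower, and Lyz2, Cd14, Itgam, Csf1r, Adgre1 and Fcgr1 were higher with TVA, beside 27.3% of all genes tested. Csf1r passed the filter only through its TVA values and so had to differ, and Adgre1 and Fcgr1 were too low to test. Adgre1 and Fcgr1 stayed at 0.89 TPM or less, C1qb at 0.69 TPM or less and C1qa and Mrc1 at 0.22 TPM or less in every library. Of 7 neutrophil markers, 3 reached a mean of 1 TPM, and the list summed to 10.3 to 14.9 TPM with DMSO and 17.1 to 20.2 TPM with TVA, with Ly6g at 0.06 TPM or less. In the neutrophil list S100a9 and Mpo were called higher. Of 7 dendritic cell markers, 1 reached a mean of 1 TPM, with sums of 7.47 to 7.69 and 6.63 to 7.31 TPM. Mast cell and basophil markers reached it in 4 of 5 genes, with sums of 35.0 to 38.2 and 32.6 to 33.0 TPM. B cell markers reached it in 1 of 6, with sums of 11.4 to 15.0 and 10.8 to 11.2 TPM, and CD4 T cell markers in 2 of 3, with sums of 9.28 to 10.1 and 7.55 to 8.31 TPM. NK cell markers reached it in 0 of 4, with sums of 0.72 to 1.18 and 0.23 to 0.78 TPM, and red cell markers in 3 of 4, with sums of 16.1 to 29.2 and 9.41 to 23.4 TPM. Of the remaining markers Cd3g and Prf1 were called higher, and Cd40lg, Fcer1a and Hbb-bt lower. The part of other cells in the Cxcl3, Ccl2 and Ccl7 levels was not tested.

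The other chemokine ligands were taken from a list of 31 genes, of which 30 were in the table, 9 were at 0 throughout and 13 were tested. Of these 13, 2 were called higher and 2 lower by limma, beside 5.28% and 3.23% of all genes tested. The median log2 change of the 13 was 0.02. Ccl7 and Ccl24 are among the 4 called, but each passed the filter only through the group where it was high and so had to differ, and their values are given without a test. Ccl2, the monocyte attractant that binds CCR2, was measured at 2.27, 2.68 and 2.60 TPM with DMSO and at 6.83, 5.99 and 5.92 TPM with TVA (log2 change 1.04 ± 0.08 SE, adjusted p = 0.0010, limma). Ccl7, which also binds CCR2, was measured at 0.64, 0.71 and 0.37 TPM with DMSO and at 2.67, 2.87 and 3.00 TPM with TVA. Every TVA library was above every DMSO library for both genes. The Ccl2 call held in the 13 alternatives in which it was tested, all but the minimum mean of 10 TPM, with adjusted p up to 0.011. At these low levels they sat nearer to Cxcl2 and Cxcl3 than to the abundant CC ligands.

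Ccl24, an eosinophil attractant, was measured at 1.53, 1.89 and 1.75 TPM with DMSO and at 0.32, 0.63 and 0.64 TPM with TVA. Ppbp, a platelet chemokine, was measured at 6.65, 7.73 and 9.18 TPM with DMSO and at 5.48, 4.14 and 5.55 TPM with TVA (log2 change -0.55 ± 0.13 SE, adjusted p = 0.044, limma). The Ppbp call was lost in 9 of 13 alternatives, with adjusted p from 0.051 to 0.15. Pf4, Ccl6 and Cxcl9, the most abundant of the other ligands, had log2 changes of -0.15, -0.07 and 0.19 and did not pass (adjusted p = 0.11, 0.58 and 0.070, limma), although Pf4 passed with the GC correction (adjusted p = 0.043).

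Receptor transcripts were read in the same libraries, beside the ligands they bind. Of 23 listed receptors, 13 were tested, with a median log2 change of -0.04. By limma 2 of them were called higher and 4 lower, beside 5.28% and 3.23% of all genes tested. Ccr4, the receptor of CCL22, was measured at 12.3, 12.6 and 11.6 TPM with DMSO and at 7.38, 8.43 and 8.48 TPM with TVA (log2 change -0.53 ± 0.07 SE, adjusted p = 0.0066, limma). Ccr8, the receptor of CCL1, was measured at 4.17, 3.91 and 3.89 TPM with DMSO and at 2.29, 2.61 and 2.56 TPM with TVA (log2 change -0.52 ± 0.07 SE, adjusted p = 0.0080, limma). Both receptors were lower in every TVA library than in any DMSO library, while their ligands Ccl22 and Ccl1 overlapped between the groups. The Ccr4 call held in all 14 alternatives (adjusted p = 0.0022 to 0.036), and the Ccr8 call in the 13 in which it was tested (adjusted p = 0.0040 to 0.043), all but the minimum mean of 10 TPM.

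Cxcr3, the receptor of CXCL10, was measured at 18.3, 17.8 and 16.2 TPM with DMSO and at 12.6, 14.4 and 11.5 TPM with TVA (log2 change -0.42 ± 0.08 SE, adjusted p = 0.029, limma). The groups did not overlap, in the direction opposite to that of the Cxcl10 values. The Cxcr3 call was lost without DMSO replicate 3, without TVA replicate 1 or 3, and with a lower filter that took in every gene above 0 TPM (adjusted p = 0.056 to 0.11).

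Ccr1, a receptor of CCL3, CCL5 and CCL9, did not pass and ranged from 2.21 to 2.43 TPM in the DMSO libraries and from 2.52 to 2.62 TPM in the TVA libraries (adjusted p = 0.26, limma). The receptors of the ligands at both ends of the order were too low to test. Xcr1 was at 0.52 to 0.72 TPM, Cxcr2 at 0.05 to 0.14 TPM and Ccr3, which CCL5 also binds, at 0.04 to 0.16 TPM.

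Ccr7, which directs T cells to lymph nodes and binds none of the 10 ligands, was measured at 582.2, 593.0 and 532.7 TPM with DMSO and at 669.9, 674.4 and 675.1 TPM with TVA (log2 change 0.24 ± 0.05 SE, adjusted p = 0.026, limma). Ccr9, a gut-homing receptor, went from 5.31 ± 0.17 TPM (SD, n = 3) to 7.26 ± 0.18 TPM (SD, n = 3), with an adjusted p of 0.0097 by limma. Ccr2, the receptor of CCL2 and CCL7, went from 1.94 ± 0.11 TPM (SD, n = 3) to 1.23 ± 0.16 TPM (SD, n = 3), with an adjusted p of 0.032 by limma. The Ccr7 and Ccr2 calls were each lost without any 1 TVA library and under a replicate block, that of Ccr7 also when genes down to 0 TPM were taken in (adjusted p = 0.054 to 0.13) and that of Ccr2 also without DMSO replicate 3 (adjusted p = 0.060 to 0.12). The Ccr9 call was lost without TVA replicate 1 or 2 (adjusted p = 0.054 to 0.068). Cxcr6 and Cxcr4 did not pass (log2 change 0.15 and 0.24, adjusted p = 0.20 and 0.067, limma), although Cxcr4 passed without DMSO replicate 2 (adjusted p = 0.0084).

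**Figure D5:**
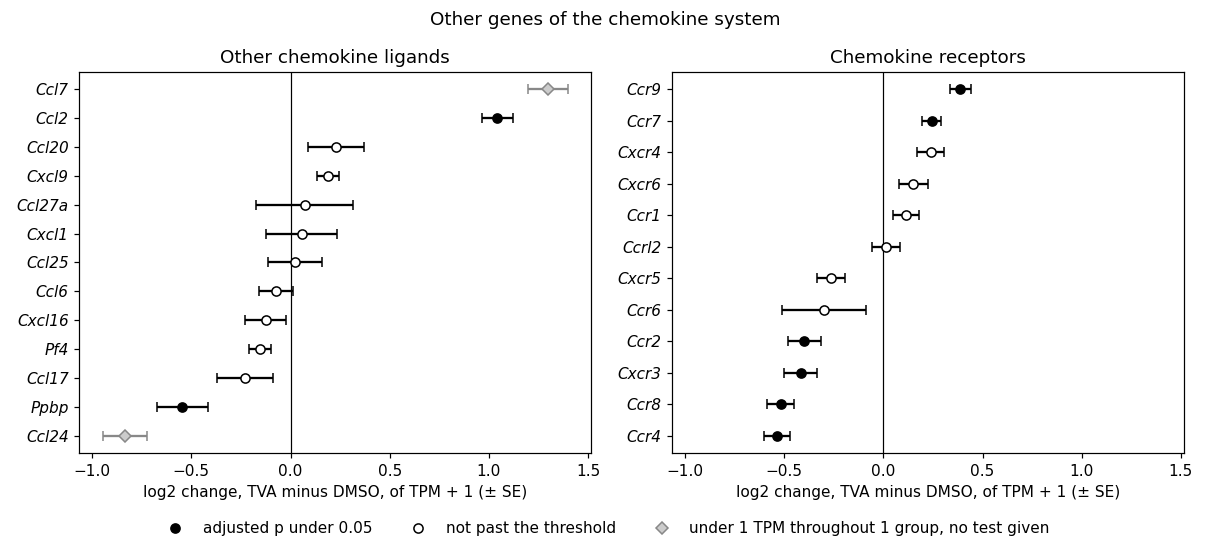
Log2 change of TPM + 1 between TVA and DMSO (horizontal axes, ± SE) for the 13 other chemokine ligands and 12 of the 13 receptors tested, with filled points where the adjusted p was under 0.05 and grey diamonds for genes under 1 TPM throughout a group, given without a test. Ccl7 and Ccl2 lie at 1.30 and 1.04, Ccl24 at -0.84, and Ccr4 and Ccr8 at -0.53 and -0.52.

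Transcription factors of activated T cells, several of which bind chemokine promoters, were read from a list of 43 genes, of which 42 were tested. By limma 3 were called higher and 6 lower, beside 5.28% and 3.23% of all genes tested. The median log2 change of the 42 was -0.02. Eomes, a T-box factor of effector and memory CD8+ T cells, went from 21.9 ± 1.52 TPM (SD, n = 3) to 32.5 ± 0.42 TPM (SD, n = 3), with an adjusted p of 0.0031 that stayed at or below 0.032 in every alternative. Of the NF-kB pathway, Nfkb1 went from 379.9 ± 24.0 TPM (SD, n = 3) to 326.4 ± 4.27 TPM (SD, n = 3) and Nfkbia, which encodes its inhibitor and is itself an NF-kB target, from 441.2 ± 40.8 TPM (SD, n = 3) to 356.8 ± 4.79 TPM (SD, n = 3), with adjusted p of 0.041 and 0.036 by limma. Those NF-kB calls were lost in 7 and 6 of 14 alternatives (adjusted p up to 0.16 and 0.15). The other factors called were Hif1a and Nr4a3 (higher, log2 change 0.27 and 0.17) and Stat5a, Batf, Batf3 and Egr3 (lower, log2 change -0.38, -0.29, -0.26 and -0.25), each of which lost its call without 1 or more of the TVA libraries. For Batf3 the log2 change was -0.048 with the GC correction (adjusted p = 0.71, limma), and its call was lost in 8 of 14 alternatives. The calls of Nr4a3, Egr3, Batf, Stat5a and Hif1a were lost in 9, 7, 5, 3 and 2 of the 14. Atf4 and Irf4, both abundant, had a log2 change of 0.06 each and did not pass (adjusted p = 0.25 and 0.31, limma).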

How the data were processed

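RNA-seq was measured in 6 libraries of activated mouse CD8+ T cells, 3 with DMSO and 3 with 20 µM TVA for 24 h, grouped by their titles. The authors deposited 1 table of TPM per gene symbol, with 2 decimals and the same total in each library, which keeps no depth, so no counting interval is given. STAR, RSEM and mm10 are named in the submitters' processing notes, without versions. The annotation and the strand setting are not given in the sources used here.

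The 10 genes, the lists of other ligands, receptors, transcription factors and markers, and the rule for named genes were chosen with earlier results of these data known. Of each list other than the markers, the genes with an adjusted p under 0.05 and the 4 with the highest mean TPM were named, with receptors of the 10 ligands (1 is not reported here) and the 3 genes most like Xcl1 and Cxcl3 in profile. Marker genes were named after their values were seen.

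Genes with at least 1 TPM in at least 3 libraries (10866) were compared on log2(TPM + 1), which understates the change of low genes, with limma 3.58.1 in R 4.3.3 (variance trend, two-sided, Benjamini-Hochberg over all genes tested, threshold 0.05). An exact permutation test of 3 against 3 cannot go below 0.1 and was not used. A run on simulated data checked only that the code recovers large planted changes, and it gives no support to the calls made here. In the GC correction, a loess curve (span 0.5) on the GC content of GENCODE vM21 transcripts, known for 97.4% of genes, was subtracted in each library. Promoters and coordinates are from RefSeq, GRCm38.p6. Deviations of same-numbered libraries from their group means correlated at 0.16, 0.03 and -0.08, so the numbers were not taken to pair libraries. Alternatives were a pseudocount of 0.1, all genes above 0 TPM, a minimum mean of 10 TPM, median-of-ratios scaling, quantile normalization, no variance trend, a replicate block and each library left out. Figures were drawn with matplotlib 3.10.9.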

Additional observations from a re-analysis of the deposited data

How the results depend on the processing

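No log2 change of the 10 chemokine genes changed sign in any alternative, and 134 of their 139 values stayed on the same side of the threshold, the other 5 passing it only with a library left out. The count of the 10 that were called was 1, and 1 to 4 with 1 library left out (2 without DMSO replicate 1 or TVA replicate 2, 4 without DMSO replicate 2). The share of all genes called was 8.51% with all libraries. It was 8.7% without DMSO replicate 1, 0.939% without TVA replicate 2 and 20.6% without DMSO replicate 2. Cxcl2 has no value where a mean of 10 TPM was required. Over all genes, 925 were called, but 494 when all genes above 0 TPM were tested, 608 with a mean of at least 10 TPM, 218 with the replicate block and 102 to 2242 with 1 library left out (2242 without DMSO replicate 2). Of the 925, 574 were higher and 351 lower. The split was 292 and 462 after median-of-ratios scaling, which moved the median log2 change of all genes from 0.04 to 0.01, 360 and 416 after quantile normalization, and 590 and 534 with GC corrected, an alternative that was added after the data were seen.

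With a mean of at least 10 TPM, limma called 0 of the 2 other ligands left to test (1 at an unadjusted p under 0.05). It called 3 of 5 receptors in that setting, beside 608 of all 7563 genes. Of 13 receptors, 6 were called, and 2 to 7 with 1 library left out (2 without TVA replicate 1, 3 without TVA replicate 2 or 3, 4 without DMSO replicate 3). The replicate block left 4 of the receptors called, beside 218 of all 10866 genes. Of those 10866, 125, 102 and 113 were called without TVA replicates 1, 2 and 3, and 294 and 2242 without DMSO replicates 3 and 2. With all genes above 0 TPM, 494 of 16749 were called, and with the GC correction 1124 of 10866. Of 42 transcription factors, 9 were called, but 3 with all genes above 0 TPM, 3 with the replicate block, 14 with the GC correction and 1 to 19 with 1 library left out (1 without TVA replicate 2 or 3, 2 without TVA replicate 1, 4 without DMSO replicate 3, 19 without DMSO replicate 2). Of 369 values of the 27 other named genes, 72 lost their call and 1 turned in direction: the log2 change of Ccl6 ran from -0.15 without DMSO replicate 1 to 0.021 without DMSO replicate 2. The cause of these shifts was not tested. TPM keep no depth, so the precision of low genes such as Cxcl2 and Ccl7 is known only from the spread of 3 libraries.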

Other observations

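Over the 6 libraries, the genes with the profile most like that of Xcl1 were Zmat2, Gm10052 and Cox6b1, with root mean square differences of centred log2(TPM + 1) of 0.02, 0.02 and 0.03 among 8934 genes whose mean was 5 TPM or more. Gm10052 was measured at 1493, 1985 and 1875 TPM in DMSO replicates 1 to 3, which puts replicate 1 lowest and replicate 2 highest, as for Xcl1. The genes most like Cxcl3 were Cpt1a, a carnitine transferase of fatty acid oxidation, Spp1, which encodes osteopontin, and Penk, which encodes proenkephalin, at larger differences of 0.25, 0.26 and 0.29. The points share library and scaling, and no test was made.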
